A study of Mus musculus with 33 samples.

Results

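Pan-leukocyte genes are genes that blood cells of nearly every lineage transcribe and that endothelium is not known for, so their RNA in a sorted endothelial library is commonly read as a gauge of the blood cell RNA it holds. The 8 genes Ptprc, Cd53, Itgb2, Laptm5, Vav1, Spi1, Coro1a and Lcp1 were taken by gene name from the 38899 genes that all 4 expression tables list, and each was present in every table. They were followed over 33 RNA sequencing libraries of adult mouse bone and marrow cells, 3 libraries in each of 11 groups, and set against Cdh5, the gene of VE-cadherin, in the same library. All mice were C57BL/6 of 8 to 12 weeks, and all samples came from femur and tibia except the diaphysis group, which came from femur alone.

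The 8 endothelial cell (EC) groups were sorted from crushed, collagenase-digested bone. In irradiated bone EC the sorted GFP+ cells came from Cdh5-mTnG mice, which carry a reporter, after 9 Gy, and in bone EC they came from untreated Cdh5-mTnG mice. Vav1 DTX EC and Vav1 control EC carry one genotype in their labels (Vav1-Cre R26-DTR Cdh5-mTnG) and one treatment (diphtheria toxin), so that only their sample titles and column names tell them apart. Vav1-Cre is used to switch on a floxed allele in blood cells, and R26-DTR is a Cre-dependent receptor for the toxin. Apln+ EC were GFP+ cells of tamoxifen-treated Apln-CreERT2 R26-mTmG mice, and diaphysis EC were GFP+ cells of untreated Cdh5-mTnG mice. 9Gy1D EC were Tomato+/GFP+ cells of Cdh5-mTnG mice given 9 Gy, and Esm1+ EC were Tomato+/GFP+ cells of tamoxifen-treated Esm1-CreER R26-mTmG mice. The labels give no time after irradiation. The 3 blood groups, from untreated wild-type mice, were LSK (Lin- Sca1+ cKit+ cells, the fraction with the blood stem cells), Lin- (lineage-negative cells) and BMC (whole bone marrow cells). The gene that drives the reporter in 6 EC groups is Cdh5 itself. By the genotype label, the promoter of Vav1, one of the 8 genes, drives Cre in both Vav1 groups. Their column names, however, are Vav1-Cre for Vav1 DTX EC and Vav1-Cont for Vav1 control EC. Whether the controls carry Cre is therefore not settled by the labels. The labels do not say that replicates are separate animals, so p-values measure the spread between these samples, which may be technical.

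The 8 genes cover the main tasks of a leukocyte. Ptprc encodes CD45, the receptor tyrosine phosphatase of nucleated blood cells, and Cd53 a tetraspanin of their surface. Itgb2 encodes the beta chain shared by the leukocyte integrins, which bind ligands on endothelium. Laptm5 encodes a lysosomal membrane protein that lowers the surface level of antigen receptors. Vav1 encodes a signalling protein that acts downstream of antigen receptors, and Spi1 encodes PU.1, a transcription factor of myeloid and B cells. Coro1a and Lcp1 encode coronin 1A and L-plastin, which bind actin filaments. Bone marrow sinusoids are lined by a thin fenestrated endothelium through which maturing blood cells pass, so endothelial and blood cells lie in direct contact in this tissue.

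PU.1 binds purine-rich DNA around the letters GGAA, and GAGGAA is the core of its classical site, the PU box. RefSeq promoter windows of 300 bases (250 before to 50 after a transcription start, GRCm38.p6) were at hand for 6 of the 8 genes, in 9 windows. GAGGAA was present on either strand in windows of 4 of these 6 genes, against 31.3% of 27025 genes in the same table. Because GAGGAA contains GGAA, the shorter motif was counted too: all 9 windows held it, as did 96.0% of all 32851 windows. The 4 windows with the longer motif are shown 5′ to 3′ in the sense of the gene, with GAGGAA, or TTCCTC where it lies on the other strand, in capitals. They are chr17:57278850-57279149 (+ strand) for Vav1, chr3:106790100-106790399 (- strand) for Cd53, chr4:130913066-130913365 (+ strand) for Laptm5 and chr1:138175256-138175555 (- strand) for Ptprc.
Vav1: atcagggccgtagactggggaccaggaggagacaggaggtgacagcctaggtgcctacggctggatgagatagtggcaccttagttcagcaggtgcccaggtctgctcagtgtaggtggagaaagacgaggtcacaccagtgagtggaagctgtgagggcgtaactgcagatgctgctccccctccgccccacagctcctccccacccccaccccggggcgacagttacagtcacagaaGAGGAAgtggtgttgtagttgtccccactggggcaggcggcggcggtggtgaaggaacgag
Cd53: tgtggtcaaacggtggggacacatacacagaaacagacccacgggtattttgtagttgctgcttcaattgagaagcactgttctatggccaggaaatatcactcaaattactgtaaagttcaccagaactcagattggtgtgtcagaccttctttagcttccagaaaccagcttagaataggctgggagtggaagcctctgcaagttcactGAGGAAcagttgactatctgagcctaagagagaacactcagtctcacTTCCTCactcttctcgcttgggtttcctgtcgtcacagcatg
Laptm5: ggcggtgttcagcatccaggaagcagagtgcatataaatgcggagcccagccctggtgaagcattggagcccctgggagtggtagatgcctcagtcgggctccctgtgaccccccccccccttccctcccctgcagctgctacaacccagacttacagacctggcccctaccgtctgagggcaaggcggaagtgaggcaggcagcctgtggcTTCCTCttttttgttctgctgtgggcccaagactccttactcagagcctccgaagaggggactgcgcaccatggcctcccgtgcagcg
Ptprc: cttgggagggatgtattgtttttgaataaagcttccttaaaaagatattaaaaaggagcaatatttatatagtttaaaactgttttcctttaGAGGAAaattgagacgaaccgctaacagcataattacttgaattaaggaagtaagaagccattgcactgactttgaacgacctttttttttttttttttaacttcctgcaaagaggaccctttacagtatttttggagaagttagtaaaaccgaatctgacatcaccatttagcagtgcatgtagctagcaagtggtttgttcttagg
With the start site as position 0, the first base of the motif lies at -11 in Vav1, at -39 and, as TTCCTC, at 8 in Cd53, at -38 as TTCCTC in Laptm5 and at -158 in Ptprc. A second Ptprc window and the windows of Coro1a and Lcp1 held GGAA but not GAGGAA. A match of letters is a description of these windows and does not show a bound site.

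Depth and likeness of the libraries bear on all values that follow. The EC libraries held between 2.72 M and 12.29 M reads in genes (M, mega), recovered from the steps of the FPKM values (fragments per kilobase of transcript, scaled to the size of the library), and the blood libraries 1.55 M to 6.40 M. The fewest reads on any of the 8 genes in an EC library were 88, for Vav1 in irradiated bone EC replicate 2, and the most were 35568, for Lcp1 in Esm1+ EC replicate 2. In the labelled endothelium the summed FPKM of 20 pan-endothelial genes ranged from 1237 to 7654, against 37.2 to 164 in the blood libraries, so that every EC group carried endothelial RNA. Some libraries stood apart from their group when their reads were compared over genes (chi-square per degree of freedom, 1 for sampling noise alone). Apln+ EC replicate 1 differed from its partners by 139 and 167, which differed from each other by 24.6. Vav1 DTX EC replicate 2 differed by 96.4 and 108, against 17.4 between its partners, and Lin- replicate 3 by 81.5 and 89.3, against 11.8. Esm1+ EC replicates 1 and 2 were the reverse case, with 1.37, against 25.2 and 26.7 with replicate 3. This is above sampling noise, so they were kept as 2 samples, and values with their mean as 1 sample are given where a call depends on it. SMART-Seq v4 served for every group except BMC and Lin-, whose libraries came from a kit for stranded total RNA, and wherever these are compared the kit cannot be told apart from the population. In these bulk libraries fewer leukocytes and less RNA per leukocyte cannot be told apart either.

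All 8 genes fell in irradiated bone EC relative to bone EC, while Cdh5 rose. The smallest change was that of Lcp1 and the largest that of Coro1a, so the leukocyte genes did not move by 1 common factor. Of 13044 genes tested, 19.4% were lower in irradiated bone EC at an adjusted p below 0.05 (limma on log2(FPKM + 1), Benjamini-Hochberg over all genes tested), and the 8 of 8 stand against that share. Their median log2 difference was -1.89, beside 0.06 over all genes tested.

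Among the surface proteins, Ptprc had 18.6, 15.3 and 11.4 FPKM in irradiated bone EC, against 72.7, 49.6 and 43.3 FPKM in bone EC. The means, 15.1 ± 3.56 and 55.2 ± 15.5 FPKM (SD, n = 3 each), make it 3.65-fold lower, with a log2 difference of -1.79 (SE 0.24, adjusted p = 0.0013). Cd53 had 49.4, 22.6 and 23.9 FPKM in irradiated bone EC, against 148, 132 and 129 FPKM in bone EC. For neither gene did the groups overlap, and replicate 1 was the highest library of each group. Itgb2 had 48.4, 37.75 and 30.4 FPKM in irradiated bone EC, against 200.3, 135 and 137 FPKM in bone EC. The log2 differences were -2.15 (SE 0.29, adjusted p = 0.0013) for Cd53 and -1.99 (SE 0.23, adjusted p = 0.00067) for Itgb2. The lysosomal gene Laptm5 had 121, 86.9 and 74.0 FPKM in irradiated bone EC, against 267, 242 and 225 FPKM in bone EC. It was the most abundant of the 8 in irradiated libraries and fell by 1.397 on the log2 scale (SE 0.20, adjusted p = 0.0016), a 2.60-fold difference of means.

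Of the signalling and transcription genes, Vav1 had 11.6, 7.41 and 6.33 FPKM in irradiated bone EC, against 40.5, 26.8 and 27.2 FPKM in bone EC. Spi1 had 19.4, 10.4 and 10.01 FPKM in irradiated bone EC, against 81.2, 68.4 and 64.2 FPKM in bone EC. Both groups were apart in each case, with log2 differences of -1.79 for Vav1 (SE 0.25, adjusted p = 0.0015) and -2.40 for Spi1 (SE 0.25, adjusted p = 0.00054). The actin genes marked the ends of the range. Coro1a had 73.6, 33.7 and 33.4 FPKM in irradiated bone EC, against 365, 308 and 296 FPKM in bone EC, 6.89-fold lower by the means (log2 difference -2.85, SE 0.31, adjusted p = 0.00057). Lcp1 had 56.1, 61.4 and 53.5 FPKM in irradiated bone EC, against 174, 114 and 119 FPKM in bone EC, 2.39-fold lower (log2 difference -1.22, SE 0.19, adjusted p = 0.0022). Lcp1 was the only member whose highest irradiated library was not replicate 1. The irradiated Lcp1 values lay within 8 FPKM of each other, while those of Coro1a in the same libraries spread more than 2-fold. All 8 calls held with each library left out in turn and under every other setting tried.

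Cdh5 had 180.2, 194 and 200.3 FPKM in irradiated bone EC, against 64.1, 86.7 and 93.7 FPKM in bone EC, 2.35-fold higher (log2 difference 1.24, SE 0.17, adjusted p = 0.0014). The 8 genes summed to 398, 275 and 243 FPKM in irradiated bone EC, against 1349, 1076 and 1040.2 FPKM in bone EC. Per Cdh5 the sum was 2.21, 1.42 and 1.21 in irradiated bone EC, against 21.1, 12.4 and 11.1 in bone EC. The ratio of the mean quotients was 0.109, and even the highest irradiated library lay well under the lowest untreated one. Relative to Cdh5 the 8 log2 differences ran from -2.45 for Lcp1 to -4.09 for Coro1a, and all passed. In that fit 78% of all genes tested were lower, since Cdh5 itself rose, so nothing is read from this count.

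**Figure D1:**
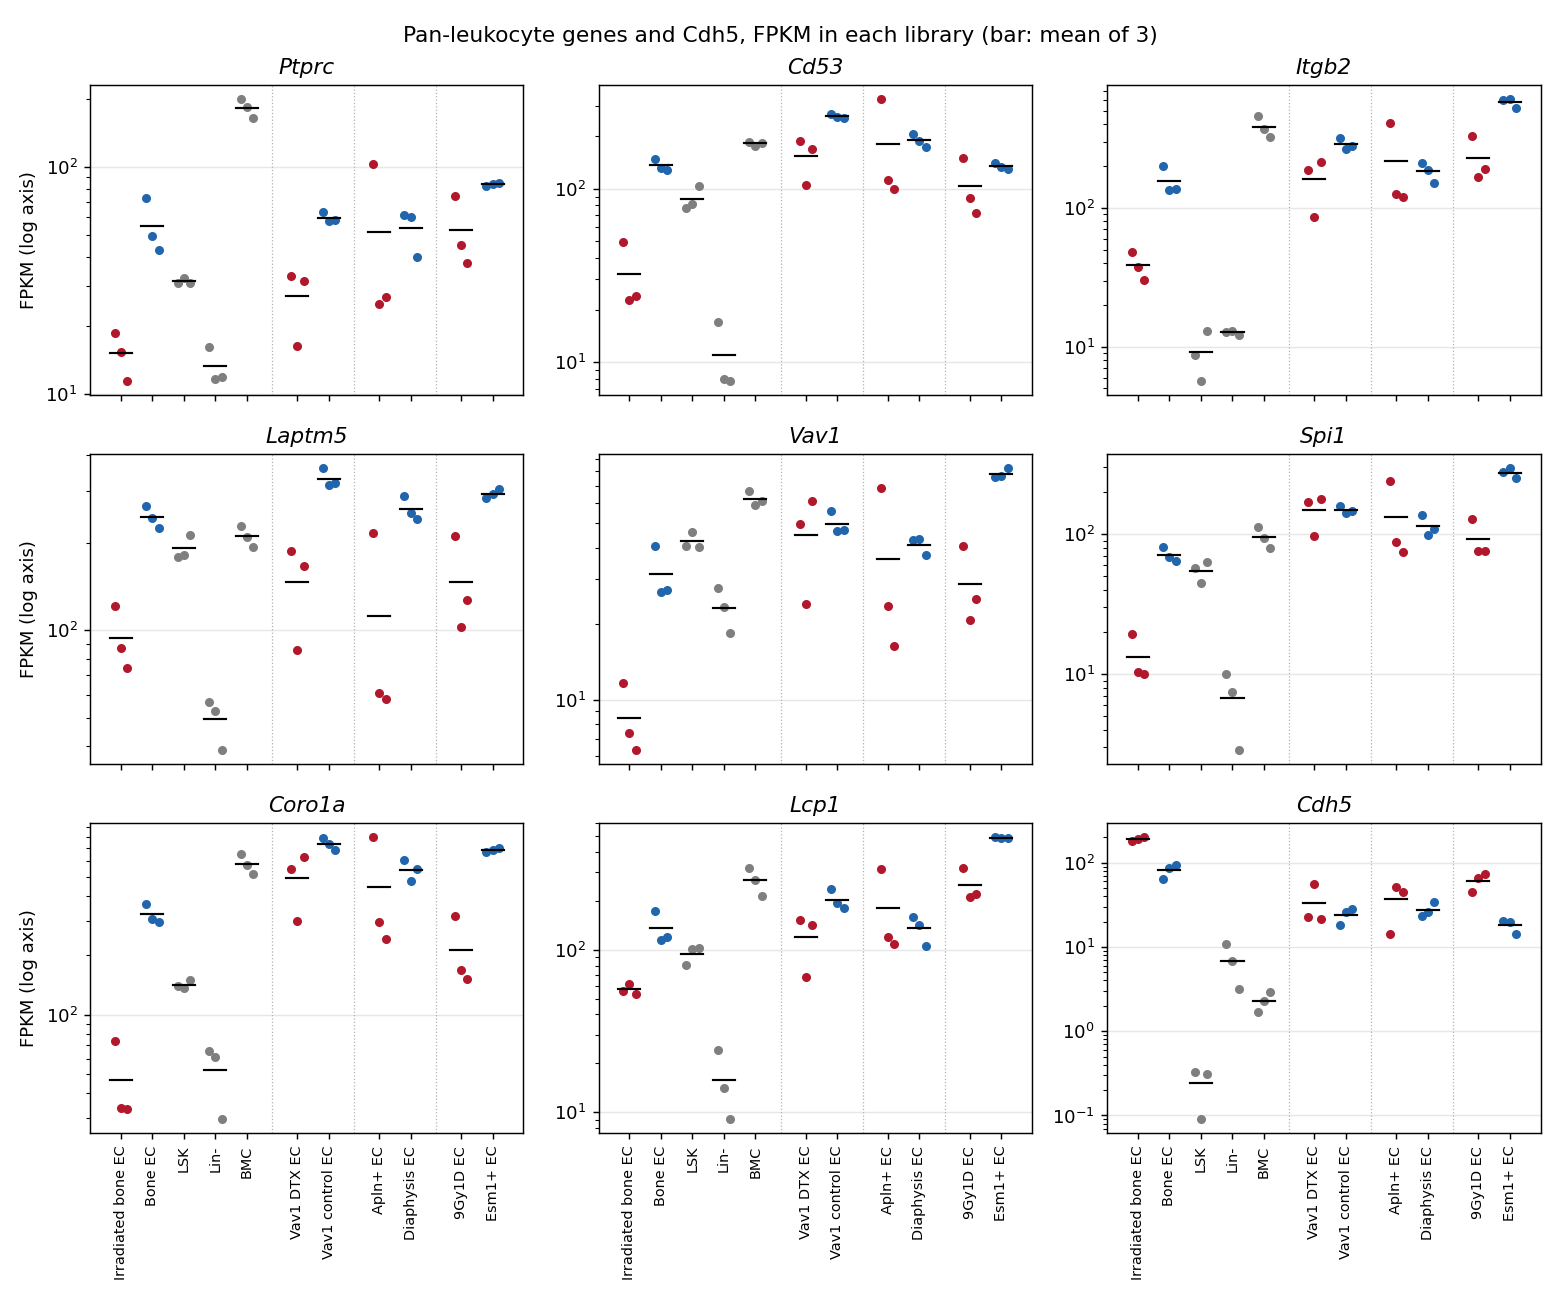
FPKM (log axis) of the 8 pan-leukocyte genes and Cdh5 in each of the 33 libraries, 1 point per library and a bar at the mean of 3; red marks irradiated bone EC, Vav1 DTX EC, Apln+ EC and 9Gy1D EC, blue the EC group each was tested against, grey LSK, Lin- and BMC, and dotted lines part the 4 tables. For each of the 8 genes the 3 irradiated bone EC points lie under the 3 bone EC points, while for Cdh5 they lie above them.

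RNA of the single blood lineages did not move as 1 block beside these genes in irradiated bone EC. All 16 neutrophil genes fell, with a summed level of 1067 to 4718 FPKM in irradiated bone EC, against 49684 to 49807 FPKM in bone EC, and S100a8, a calcium-binding protein gene of neutrophils, averaged 900.3 ± 835 and 18476 ± 1087 FPKM. Erythroid genes fell in 10 of 11 and B lymphoid genes in 11 of 12, with Cd79a, the signalling chain of the B cell receptor, at 6.00 ± 4.13 FPKM in irradiated bone EC and 148 ± 42.4 FPKM in bone EC. The exceptions are named after their values were seen. Ighm, the heavy chain of IgM, had 2823, 1431 and 1241 FPKM in irradiated bone EC, against 1071, 627 and 958 FPKM in bone EC, and did not pass (adjusted p = 0.064). It makes up most of the summed B lymphoid level, which was 1255 to 2857 FPKM in irradiated bone EC, against 1130 to 1629 FPKM in bone EC. Epor, the erythropoietin receptor gene, rose (log2 difference 1.27, adjusted p = 0.0023). Of all genes tested 22.5% were higher in irradiated bone EC. Of 14 monocyte and macrophage genes 4 rose and 5 fell, and their summed level was 1973 to 2253 FPKM in irradiated bone EC, against 1580 to 1695 FPKM in bone EC. The list also holds Vcam1 and Mrc1, and from which cells its RNA came was not tested. A higher sum is therefore not read as more macrophage RNA. The first 2 genes of this list, Csf1r and Adgre1, went against that sum and were lower in every irradiated library. Csf1r averaged 23.2 ± 3.48 FPKM in irradiated bone EC and 63.9 ± 11.9 FPKM in bone EC, and Adgre1 17.2 ± 4.08 and 30.4 ± 8.10 FPKM. Of 12 T and NK genes tested 5 rose and 1 fell, and Cd3e, a chain of the T cell receptor complex, averaged 8.61 ± 2.13 and 3.97 ± 1.33 FPKM. Cd3d, listed before it, averaged 3.88 ± 1.35 and 2.97 ± 0.72 FPKM, and its groups overlapped. The summed T and NK level overlapped too, at 86.3 to 163 FPKM in irradiated bone EC, against 106 to 111 FPKM in bone EC. In the megakaryocyte list 7 of 7 genes tested fell, and Gp6 and Treml1 were at 0 in all 3 irradiated libraries. In no other of these lists was a gene at 0 throughout the irradiated group. What part each lineage has in the fall of the 8 genes was not tested.

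In Vav1 DTX EC the 8 genes ranged from members that fell to members whose levels overlapped those of Vav1 control EC. Ptprc, Laptm5 and Cd53 fell, Itgb2, Lcp1 and Coro1a were lower in every library without passing, Vav1 and Spi1 overlapped, and Spi1 had nearly the same mean in both groups. At an adjusted p below 0.05, 15% of 11664 genes tested were lower in Vav1 DTX EC, and 3 of the 8 were. In 6 of the 8 every Vav1 DTX library lay under every control library, against 23.6% of all genes tested. The median log2 difference of the 8 was -0.81, beside 0.03 over all genes tested.

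Ptprc had 32.98, 16.3 and 31.5 FPKM in Vav1 DTX EC, against 63.2, 58.1 and 58.2 FPKM in Vav1 control EC, a log2 difference of -1.19 (SE 0.26, adjusted p = 0.015). Laptm5 had 187, 85.8 and 166 FPKM in Vav1 DTX EC, against 360, 315 and 320.1 FPKM in Vav1 control EC, a log2 difference of -1.25 (SE 0.28, adjusted p = 0.018). Cd53 had 189, 105 and 169.9 FPKM in Vav1 DTX EC, against 268, 259 and 255 FPKM in Vav1 control EC, a log2 difference of -0.79 (SE 0.22, adjusted p = 0.037). In these genes replicate 2 of Vav1 DTX EC, the library that stood apart, was the lowest. Without it the log2 differences were -0.87 (adjusted p = 0.00049), -0.91 (0.00066) and -0.54 (0.003). Without any 1 control library none of these passed, with adjusted p from 0.06 to 0.072 for Ptprc, 0.066 to 0.082 for Laptm5 and 0.11 to 0.13 for Cd53.

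The other surface and actin genes were lower in every Vav1 DTX library but did not pass. Itgb2 had 186, 85.7 and 213 FPKM in Vav1 DTX EC, against 320.1, 267 and 279.9 FPKM in Vav1 control EC (adjusted p = 0.076). Lcp1 had 152, 67.5 and 141 FPKM in Vav1 DTX EC, against 236, 193 and 182 FPKM in Vav1 control EC (adjusted p = 0.089). Coro1a had 552, 299 and 631 FPKM in Vav1 DTX EC, against 789, 736 and 684 FPKM in Vav1 control EC (adjusted p = 0.13). Without Vav1 DTX replicate 2 these 3 passed as well, at adjusted p of 0.0086, 0.023 and 0.047, in a fit that called 41.6% of all genes in either direction, against 26.3% with all libraries. Vav1, whose promoter drives Cre in the labelled genotype, had 49.5, 24.0 and 61.3 FPKM in Vav1 DTX EC, against 55.7, 46.4 and 47.1 FPKM in Vav1 control EC, with a log2 difference of -0.24 (SE 0.32, adjusted p = 0.62). Spi1 had 171, 97.5 and 179 FPKM in Vav1 DTX EC, against 159, 142 and 146 FPKM in Vav1 control EC, with a log2 difference of -0.05 (SE 0.24, adjusted p = 0.9). Both genes had a Vav1 DTX library above and replicate 2 below all control libraries. The sign of both differences turned without that library and with values rescaled to TPM.

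Quotients within a library, which do not depend on scaling, formed a gradient over the 8 genes. Spi1 per Ptprc was 5.18, 5.98 and 5.70 in Vav1 DTX EC, against 2.52, 2.44 and 2.52 in Vav1 control EC. Vav1 per Ptprc was 1.501, 1.47 and 1.95 in Vav1 DTX EC, against 0.88, 0.80 and 0.81 in Vav1 control EC. In both quotients the groups lay apart and Vav1 DTX replicate 2 stood with its partners, although its levels did not. Coro1a per Ptprc averaged 18.4 ± 1.67 in Vav1 DTX EC and 12.3 ± 0.48 in Vav1 control EC. Cd53, which fell, also had more per Ptprc in every Vav1 DTX library, at 5.86 ± 0.54 in Vav1 DTX EC and 4.36 ± 0.11 in Vav1 control EC. Lcp1 per Ptprc averaged 4.41 ± 0.25 and 3.39 ± 0.31, and Itgb2 per Ptprc 5.89 ± 0.79 and 4.82 ± 0.23, so these quotients do not part the members that fell from the others. Laptm5 per Ptprc averaged 5.40 ± 0.24 in Vav1 DTX EC and 5.54 ± 0.14 in Vav1 control EC (SD, n = 3 each).

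Cdh5 had 22.9, 56.0 and 21.8 FPKM in Vav1 DTX EC, against 18.2, 25.9 and 28.5 FPKM in Vav1 control EC, and did not pass (log2 difference 0.34, SE 0.37, adjusted p = 0.53). Per Cdh5 the sum of the 8 genes was 66.4, 13.9 and 73.2 in Vav1 DTX EC, against 124, 77.9 and 69.2 in Vav1 control EC, and the groups overlapped. Relative to Cdh5 only Laptm5 passed, at -1.59 on the log2 scale (SE 0.54, adjusted p = 0.049), where 6.3% of all genes tested were lower. It no longer did with a pseudocount of 0.1, with no filter on low values, with the replicate block, with Emcn in place of Cdh5, with each gene tested on its own variance, or without Vav1 DTX replicate 2 or any 1 of the 3 control libraries. With Pecam1 in place of Cdh5, 6 of the 8 passed.

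Marker lists of single cell types moved unequally beside the 8 genes. All 11 B lymphoid genes tested fell, with a summed level of 67.0 to 85.2 FPKM in Vav1 DTX EC, against 1327 to 2039 FPKM in Vav1 control EC, and Cd79a averaged 6.25 ± 0.99 and 209 ± 26.8 FPKM. Erythroid genes fell in 10 of 11, to a summed 813 to 1523 FPKM in Vav1 DTX EC, against 20138 to 36729 FPKM in Vav1 control EC. T and NK genes fell in 9 of 11, and monocyte and macrophage genes in 10 of 14, with Csf1r, the receptor for macrophage colony-stimulating factor, at 13.7 ± 3.73 FPKM in Vav1 DTX EC and 74.1 ± 7.22 FPKM in Vav1 control EC. Megakaryocyte genes fell in 7 of 8. Of 16 neutrophil genes 2 rose and 4 fell, where 11.3% of all genes tested were higher, with a summed level of 39879 to 90573 FPKM in Vav1 DTX EC, against 90636 to 100057 FPKM in Vav1 control EC. Genes listed for cell types outside the blood, mesenchymal stroma and osteoblasts, fell in 6 of 10 tested. Their summed level was 49.3 to 75.8 FPKM in Vav1 DTX EC, against 271 to 443 FPKM in Vav1 control EC. Cxcl12, a chemokine gene of marrow stroma, averaged 19.4 ± 1.76 and 157 ± 44.7 FPKM. Whether the RNA of this list came from stroma or from endothelium was not tested. No gene of these lists was at 0 throughout either group. The part of these cell types in the levels of the 8 genes was not tested.

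In 9Gy1D EC 7 of the 8 genes fell relative to Esm1+ EC, the EC group with the highest sum of the 8 per Cdh5, and Cdh5 rose. These groups differ in irradiation, in tamoxifen treatment, in reporter allele and in the endothelial fraction marked, so no difference between them belongs to 1 of these. Of 11746 genes tested 23.1% were lower in 9Gy1D EC. The median log2 difference of the 8 was -1.23, beside 0.00 over all genes tested.

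Coro1a had 317, 169.5 and 153 FPKM in 9Gy1D EC, against 672, 685 and 701 FPKM in Esm1+ EC, a log2 difference of -1.76 (SE 0.27, adjusted p = 0.0021). Spi1 had 128, 75.2 and 75.9 FPKM in 9Gy1D EC, against 276, 296 and 250.4 FPKM in Esm1+ EC, a log2 difference of -1.59 (SE 0.22, adjusted p = 0.0014). Vav1 had 40.7, 20.7 and 25.0 FPKM in 9Gy1D EC, against 75.7, 76.8 and 82.5 FPKM in Esm1+ EC, a log2 difference of -1.47 (SE 0.23, adjusted p = 0.0025). In all 3 genes the groups were far apart, and 9Gy1D replicate 1 was the highest of its group. Itgb2 had 331, 166 and 189.6 FPKM in 9Gy1D EC, against 597, 609 and 528 FPKM in Esm1+ EC (log2 difference -1.398, adjusted p = 0.0046). Laptm5 had 211, 102 and 127 FPKM in 9Gy1D EC, against 285, 293 and 305 FPKM in Esm1+ EC (-1.07, adjusted p = 0.013). Lcp1 had 319, 212 and 219.8 FPKM in 9Gy1D EC, against 493, 489 and 489 FPKM in Esm1+ EC (-0.99, adjusted p = 0.0043). L-plastin and the integrin chain had the highest mean FPKM of the 8 in 9Gy1D EC, and Coro1a had it in Esm1+ EC. Ptprc had 74.6, 45.3 and 37.7 FPKM in 9Gy1D EC, against 82.8, 84.1 and 84.9 FPKM in Esm1+ EC, and passed narrowly (log2 difference -0.73, SE 0.24, adjusted p = 0.042). Its call was lost with Esm1+ replicates 1 and 2 averaged as 1 sample (adjusted p = 0.1), with TPM (0.11), with no filter on low values (0.074), with voom on the recovered reads (0.071) and with no trend in the prior (0.053). It was also lost without any 1 library other than 9Gy1D replicate 1, at adjusted p of 0.092 to 0.12, while without that library it was 0.0015. Cd53 had 149.8, 88.3 and 72.3 FPKM in 9Gy1D EC, against 140.3, 133 and 130.4 FPKM in Esm1+ EC, and these overlapped (log2 difference -0.45, SE 0.25, adjusted p = 0.19).

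Cdh5 had 45.1, 65.3 and 73.2 FPKM in 9Gy1D EC, against 20.6, 19.5 and 14.1 FPKM in Esm1+ EC, 3.39-fold higher (log2 difference 1.69, SE 0.22, adjusted p = 0.0011). Per Cdh5 the 8 genes summed to 34.8, 13.5 and 12.3 in 9Gy1D EC, against 127, 136 and 182 in Esm1+ EC, and the ratio of the means was 0.136. Relative to Cdh5 all 8 passed, from -2.14 for Cd53 to -3.45 for Coro1a on the log2 scale, where 86.4% of all genes tested were lower. Beside this, where 20.6% of all genes tested were higher, neutrophil genes fell in 11 of 16, B lymphoid genes in 9 of 11 and erythroid genes in 9 of 11. Of 7 megakaryocyte and platelet genes tested 5 rose and 0 fell. Their summed level was 59.1 to 783 FPKM in 9Gy1D EC, against 15.6 to 35.5 FPKM in Esm1+ EC. Of 14 monocyte and macrophage genes 8 rose and 4 fell. The genes that lead this last list, Csf1r and Adgre1, were lower in every 9Gy1D library. It also holds Vcam1 and Mrc1, so its rise is not read as macrophage RNA. Csf1r averaged 29.5 ± 4.26 FPKM in 9Gy1D EC and 52.9 ± 4.37 FPKM in Esm1+ EC, and Adgre1 16.1 ± 4.85 and 30.0 ± 3.12 FPKM. Rag1, a recombinase gene of lymphoid precursors, was at 0 in all 9Gy1D libraries, and the part of these lineages was not tested.

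Between Apln+ EC and diaphysis EC none of the 8 genes passed, where 4.64% of 11889 genes tested were lower and 7.49% changed in either direction. At an unadjusted p below 0.05 there was 1 of the 8, by limma on FPKM and equally by limma voom on the recovered reads, which also called 0. The median log2 difference of the 8 was -0.33, beside 0.04 over all genes tested.

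That gene was Laptm5, with 216, 61.0 and 58.0 FPKM in Apln+ EC, against 289.9, 253 and 242 FPKM in diaphysis EC (log2 difference -1.499, SE 0.50, adjusted p = 0.15). It was also the only member whose groups did not overlap, and 13.3% of all genes tested lay lower in Apln+ EC in this way. Ptprc had 103, 25.0 and 26.8 FPKM in Apln+ EC, against 61.3, 60.1 and 40.2 FPKM in diaphysis EC. Coro1a had 794, 297 and 243 FPKM in Apln+ EC, against 612, 477 and 547 FPKM in diaphysis EC. In each case Apln+ replicate 1, the library that stood apart, was above all other libraries of both groups and its partners were under all diaphysis libraries. Cd53 had 329, 111 and 99.2 FPKM in Apln+ EC, against 208, 189 and 175 FPKM in diaphysis EC. Vav1 had 68.6, 23.6 and 16.3 FPKM in Apln+ EC, against 42.8, 43.1 and 37.5 FPKM in diaphysis EC. Spi1 had 238, 87.4 and 74.3 FPKM in Apln+ EC, against 136, 97.9 and 108 FPKM in diaphysis EC. The same arrangement of a high first library and a lower pair held for these genes too. Itgb2 had 412, 126 and 119 FPKM in Apln+ EC, against 209.9, 188 and 152 FPKM in diaphysis EC. Lcp1 had 315, 119.8 and 109 FPKM in Apln+ EC, against 160.3, 143 and 106 FPKM in diaphysis EC, and its lower pair overlapped the diaphysis range. Without Apln+ replicate 1, 33.3% of all genes were called in either direction, and 6 of the 8 passed as lower in Apln+ EC, with log2 differences of -2.11 for Laptm5 (adjusted p = 5.8e-05), -1.03 for Vav1, -1.01 for Coro1a, -1.004 for Ptprc, -0.85 for Cd53 and -0.56 for Itgb2 (adjusted p = 0.03). Spi1 at -0.48 (adjusted p = 0.062) and Lcp1 at -0.24 (adjusted p = 0.36) did not.

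Cdh5 ran the other way in the library that stood apart, with 14.2, 52.1 and 45.0 FPKM in Apln+ EC, against 23.0, 25.9 and 34.0 FPKM in diaphysis EC. Per Cdh5 the 8 genes summed to 174, 16.4 and 16.6 in Apln+ EC, against 74.8, 56.0 and 41.4 in diaphysis EC. Relative to Cdh5 none of the 8 passed in limma, nor did any at an unadjusted p below 0.05, where 0.631% of all genes tested were lower. The ratio of the mean quotients was 1.2 with all libraries and 0.287 without Apln+ replicate 1, so that its direction turned with 1 library. With all libraries kept, it also lay under 1 when Pecam1 or Emcn stood in place of Cdh5. The summed neutrophil level was 44653 to 152201 FPKM in Apln+ EC, against 39973 to 52057 FPKM in diaphysis EC. Monocyte and macrophage genes fell in 8 of 14, with a median log2 difference of -1.56, while the medians were 0.58 for neutrophil, -0.27 for B lymphoid and -0.11 for erythroid genes. Laptm5 per Ptprc, which is free of the library's overall leukocyte level, averaged 2.23 ± 0.18 in Apln+ EC and 4.98 ± 0.93 in diaphysis EC (SD, n = 3 each).

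**Figure D2:**
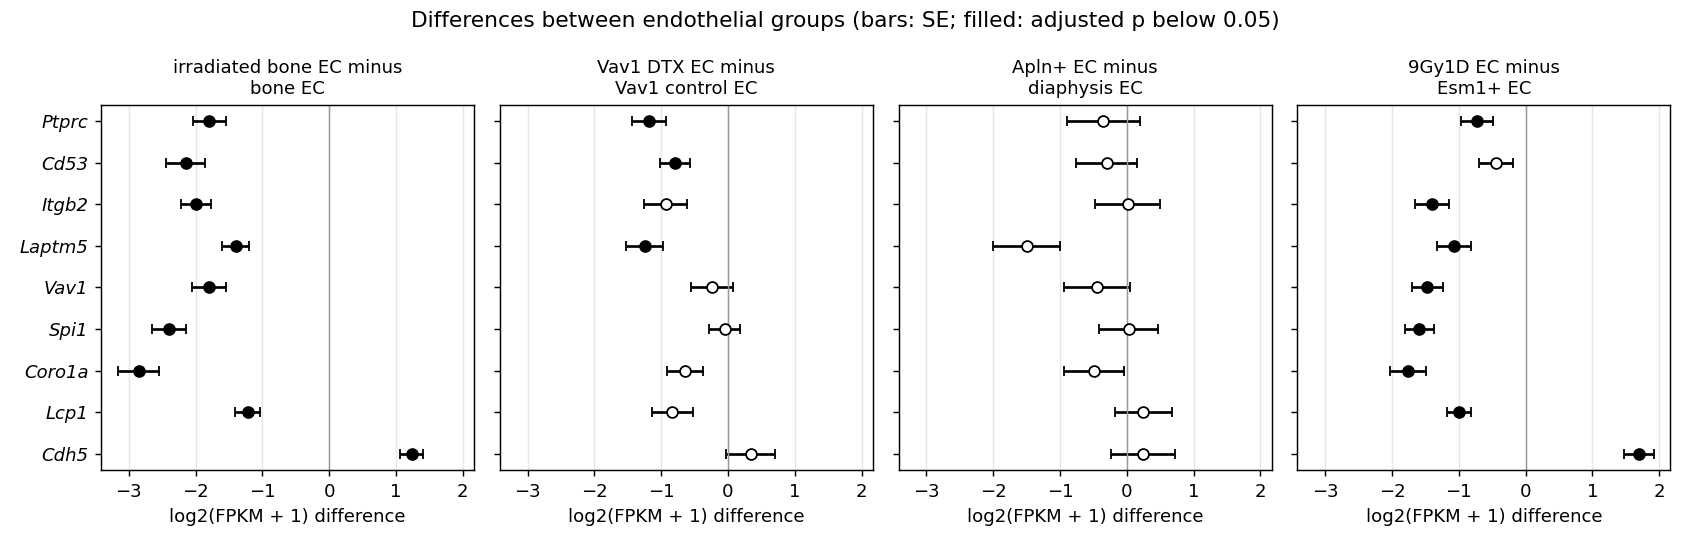
Difference in log2(FPKM + 1) between the groups named above each panel, first minus second, for the 8 genes and Cdh5, with bars for the SE and filled points for an adjusted p below 0.05 (limma, n = 3 each). The 8 leukocyte genes are all filled and left of 0 for irradiated bone EC, 3 of 8 are filled for Vav1 DTX EC, none for Apln+ EC and 7 for 9Gy1D EC.

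Set in order by the sum of the 8 genes per Cdh5, the EC groups spanned about 2 orders of magnitude. Irradiated bone EC were lowest at 1.61 ± 0.525, followed by bone EC at 14.9 ± 5.42 and 9Gy1D EC at 20.2 ± 12.7. Vav1 DTX EC had 51.2 ± 32.4, diaphysis EC 57.4 ± 16.7 and Apln+ EC 69.1 ± 91.2. Vav1 control EC had 90.2 ± 29.2, and Esm1+ EC were highest at 149 ± 29.5 (SD, n = 3 each). Single libraries set part of this order: without its replicate 1, Apln+ EC averaged 16.5 and 9Gy1D EC 12.9, the one near and the other under bone EC. The denominator set part of it as well. Per summed FPKM of the 20 pan-endothelial genes, bone EC averaged 0.527, diaphysis EC 0.509 and 9Gy1D EC 0.210. Irradiated bone EC stayed lowest at 0.0469 and Esm1+ EC highest at 1.44. Of the 7 pairs of neighbours in the order per Cdh5, the libraries were apart only between irradiated bone EC and bone EC and between Vav1 control EC and Esm1+ EC. Neighbours from different tables were not tested, because the tables were normalized separately, although a quotient within a library does not depend on its scaling. The blood groups lay at 30.3 ± 9.87 (Lin-) and 922 ± 370 (BMC), and the LSK value of 3705 ± 2805 rests on 1 to 3 reads of Cdh5 per library. Every one of the 8 genes had its lowest mean per Cdh5 among the EC groups in irradiated bone EC, from 0.0448 for Vav1 to 0.496 for Laptm5. The highest mean was that of Esm1+ EC for each gene except Cd53, for which Vav1 control EC had 11.2 ± 3.08 and Esm1+ EC 7.63 ± 1.41. Ptprc per Cdh5 was 0.0797 ± 0.0230 in irradiated bone EC, 0.723 ± 0.361 in bone EC and 4.78 ± 1.08 in Esm1+ EC.

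**Figure D3:**
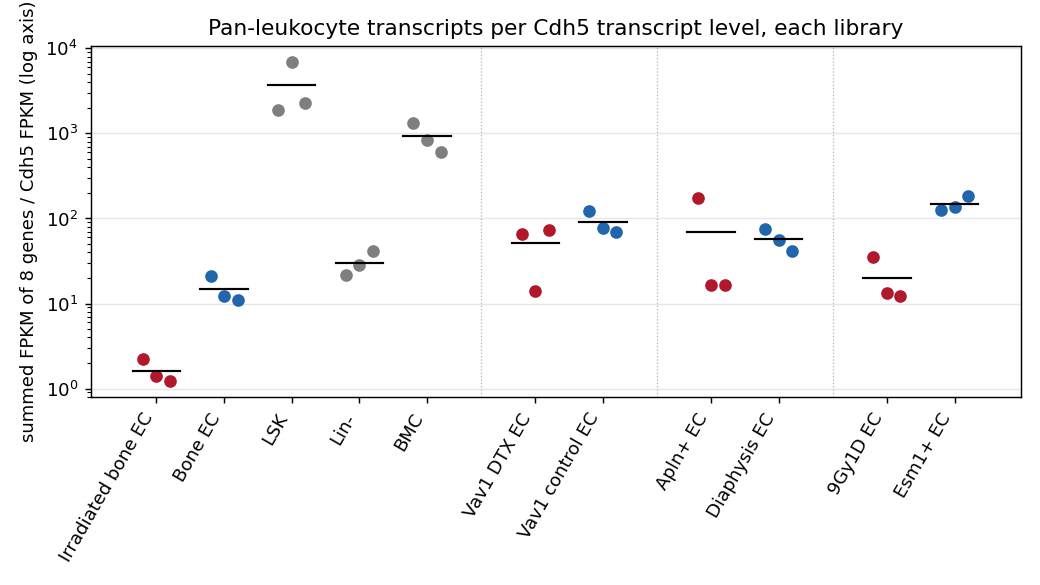
Summed FPKM of the 8 pan-leukocyte genes divided by the Cdh5 FPKM of the same library (log axis), 1 point per library and a bar at the mean of 3, in the colours red for irradiated bone EC, Vav1 DTX EC, Apln+ EC and 9Gy1D EC, blue for the EC group of the same table and grey for LSK, Lin- and BMC. Irradiated bone EC lie lowest at 1.21 to 2.21, and the 3 Apln+ EC points spread from 16.4 to 174.

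Against the blood populations of the same table, bone EC had higher levels of most of the 8 genes than Lin- cells and lower levels than whole marrow. Of 13255 genes tested against Lin-, 35.8% were higher in bone EC, and 7 of the 8 were, with log2 differences of 3.61 for Cd53, 3.51 for Itgb2, 3.33 for Spi1, 3.10 for Lcp1, 2.68 for Coro1a, 2.29 for Laptm5 and 1.96 for Ptprc. Vav1 had 40.5, 26.8 and 27.2 FPKM in bone EC, against 27.7, 23.2 and 18.4 FPKM in Lin- cells, and overlapped (log2 difference 0.42, SE 0.22, adjusted p = 0.13). Of 13194 genes tested against BMC, 34.6% were lower in bone EC, and 7 of the 8 were. Ptprc showed the largest gap, with 72.7, 49.6 and 43.3 FPKM in bone EC, against 199, 183 and 164 FPKM in BMC (log2 difference -1.73, SE 0.19, adjusted p = 0.00014). The others that fell ran from -1.29 for Itgb2 to -0.42 for Cd53 and -0.40 for Spi1, and Spi1 had an adjusted p of 0.048, overlapped and turned sign with TPM, at 0.016. Laptm5 had 267, 242 and 225 FPKM in bone EC, against 227, 209 and 193 FPKM in BMC, and did not pass (log2 difference 0.22, adjusted p = 0.14).

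Itgb2 set bone EC apart from the stem cell fraction more than any other member. It had 200.3, 135 and 137 FPKM in bone EC, against 8.73, 5.68 and 12.96 FPKM in LSK, 17.3-fold higher (log2 difference 4.01, SE 0.27, adjusted p = 1e-05). Of 14321 genes tested against LSK, 29.5% were higher in bone EC, and 6 of the 8 were. Coro1a was higher by 1.17 (adjusted p = 0.00016) and Ptprc by 0.76 (adjusted p = 0.0078), and both kept their direction under every setting. Coro1a also kept its call, whereas Ptprc was at 0.076 with TPM (adjusted p = 0.76) and at 0.38 with voom on the recovered reads (adjusted p = 0.066). Cd53 at 0.65 (adjusted p = 0.005), Lcp1 at 0.50 (adjusted p = 0.05, just under the threshold) and Laptm5 at 0.36 (adjusted p = 0.049) turned sign with TPM, which moves the median of all genes by -0.68. Vav1 was the only member with a lower mean in bone EC, 31.5 ± 7.79 FPKM against 42.3 ± 3.14 FPKM in LSK (log2 difference -0.44, adjusted p = 0.055), and it passed as lower with TPM (-1.14, adjusted p = 0.0018), with voom (-0.85, adjusted p = 0.00063) and without bone EC replicate 1 (-0.63, adjusted p = 0.0035). Spi1 had a log2 difference of 0.38 (adjusted p = 0.07).

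As a percentage of the BMC mean, the members of 1 group spread widely. In irradiated bone EC the values ran from 8.06% for Coro1a and 8.29% for Ptprc to 21.3% for Lcp1 and 44.7% for Laptm5, with a median over the 8 genes of 13.8%. In bone EC they ran from 30.3% for Ptprc and 41.0% for Itgb2 to 75.1% for Spi1 and 116% for Laptm5, with a median of 53.2%. In LSK they ran from 2.38% for Itgb2 to 90.9% for Laptm5 (median 41.6%), and in Lin- cells from 3.31% for Itgb2 to 37.0% for Vav1 (median 7.22%). With TPM the median was 21.8% in irradiated bone EC, 71.9% in bone EC and 90.8% in LSK, which puts LSK above bone EC. On the FPKM scale Laptm5 was the member nearest to its BMC level in the EC groups of this table and in LSK, and the 8 genes of a group had no common percentage. The kits differ between BMC and the EC groups, and their part in these percentages cannot be told apart from that of the cells.

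**Figure D4:**
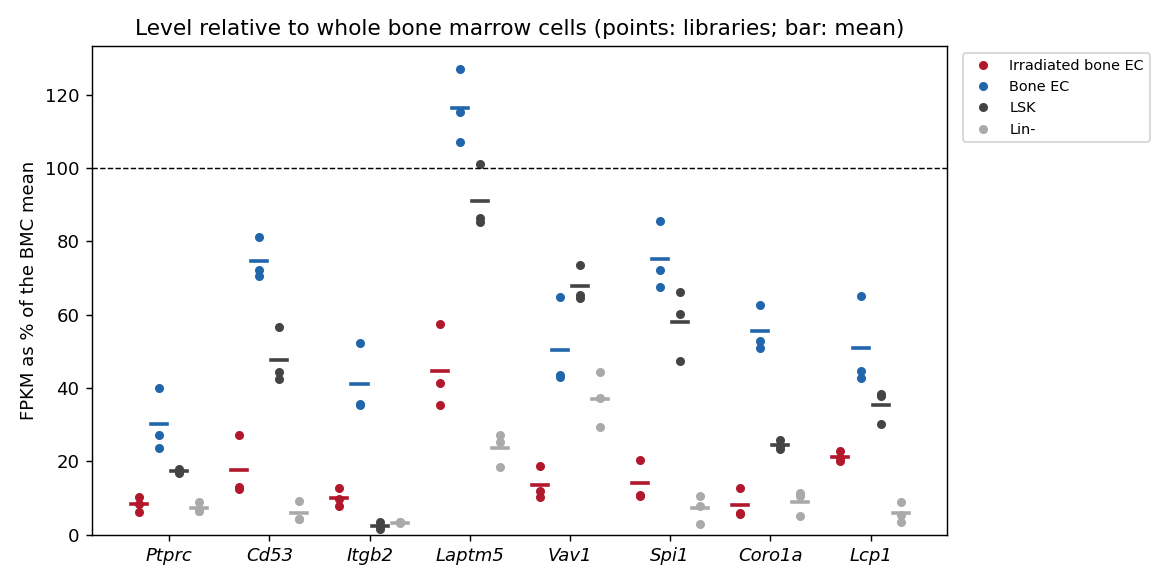
FPKM of each of the 8 genes as a percentage of the BMC mean in irradiated bone EC, bone EC, LSK and Lin-, 1 point per library with a bar at the mean of 3 and a dashed line at the BMC mean. Laptm5 is highest in irradiated bone EC (mean 44.7%) and in bone EC (mean 116%), and Itgb2 is lowest in LSK (mean 2.38%).

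The make-up of the sum gives the same unevenness within each library. Coro1a held the largest share of the 8-gene sum in bone EC, at 28.0 ± 0.85%, but 14.8 ± 3.27% in irradiated bone EC, where Laptm5 led with 30.8 ± 0.65%, against 21.3 ± 1.40% in bone EC. Laptm5 per Coro1a was 1.64, 2.58 and 2.22 in irradiated bone EC, against 0.73, 0.79 and 0.76 in bone EC, and the groups were apart. Lcp1 held 14.1, 22.3 and 22.0% in irradiated bone EC, against 12.9, 10.6 and 11.5% in bone EC. In LSK Laptm5 led as well, with 29.2 ± 0.44%, and Itgb2 held 1.38 ± 0.45%, against 19.4 ± 1.14% in BMC. Vav1 held 12.7 ± 1.15% in Lin- cells and 6.52 ± 0.84% in LSK, and means of 2.39 to 3.39% in the EC groups. Spi1 held 11.7 ± 0.71% in Vav1 DTX EC and 7.18 ± 0.21% in Vav1 control EC. Laptm5 held 7.89 ± 0.79% in Apln+ EC and 17.2 ± 0.29% in diaphysis EC, and in these shares Apln+ replicate 1 (8.73%) stood with its partners. Ptprc held between 2.08 ± 0.10% in Vav1 DTX EC and 9.29 ± 0.29% in BMC.

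**Figure D5:**
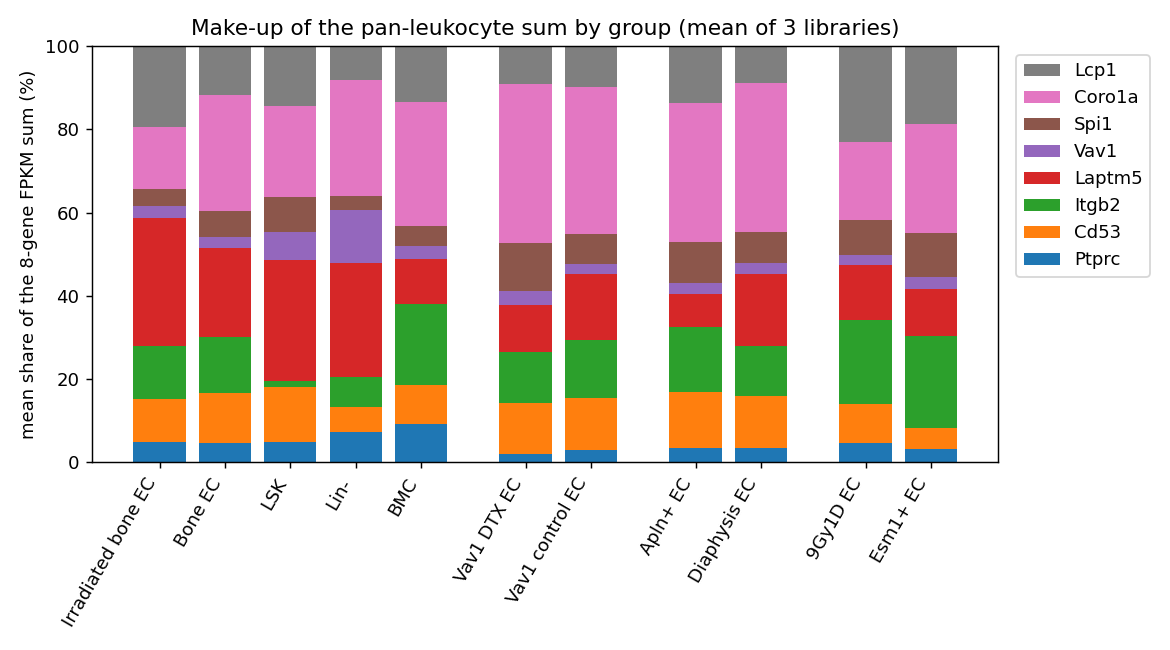
Mean share of each of the 8 genes in their summed FPKM (%, mean of 3 libraries, stacked to 100%) for the 11 groups. Coro1a takes 28.0% in bone EC and 14.8% in irradiated bone EC, and Itgb2 takes 1.38% in LSK.

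A chosen list of 22 other blood-wide genes of the leukocyte surface, cytoskeleton and signalling was set beside the 8. In irradiated bone EC 21 of 22 fell, where 19.4% of all genes tested were lower, with a median log2 difference of -1.96. The largest were Cd37, a tetraspanin gene (-2.77, 5.61 ± 2.12 FPKM in irradiated bone EC and 43.0 ± 8.12 FPKM in bone EC), Cytip (-2.74) and Lsp1, an actin-binding protein gene (-2.67). The smallest were Hcls1 (-0.91, adjusted p = 0.0025), Inpp5d, a lipid phosphatase gene (-0.73, adjusted p = 0.03), and Lcp2. Lcp2, the adaptor protein SLP-76, had 24.8 ± 2.15 FPKM in irradiated bone EC and 26.3 ± 4.56 FPKM in bone EC and did not pass (adjusted p = 0.75). In Vav1 DTX EC 9 of 22 fell, where 15% of all genes tested were lower, and in 9Gy1D EC 15 of 22, where 23.1% were. The medians were -0.89 and -1.05, and in Apln+ EC the median was -0.36. Against LSK 13 were higher and 2 lower in bone EC, where 29.5% of all genes tested were higher and 4389 of 14321 lower. Against Lin- 15 were higher and 4 lower, beside 35.8% of all genes higher and 4076 of 13255 lower. Against BMC 1 was higher and 15 were lower, beside 4722 of 13194 genes higher and 34.6% lower. Of the 20 pan-endothelial genes, 18 rose in irradiated bone EC, where 22.5% of all genes tested were higher, and 17 in 9Gy1D EC, where 20.6% were, and their median log2 difference was 0.33 in Vav1 DTX EC and 0.37 in Apln+ EC.

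Over the 15 libraries of the table with BMC, the genes whose log2(FPKM + 1) ran most like the mean of the 8 were Cd33 (r = 0.994), Trem1 (0.989), Prkcd (0.988), Lsp1 (0.988), Msra (0.988), Arl11 (0.987), Ncf4 (0.987) and Rac2 (0.986), out of 16227 genes. The points share tables, kits and groups, so these are descriptions. Over the 6 libraries of each other table, Prkcd had r of 0.962 to 0.998 and Rac2 0.909 to 0.994, while Trem1 had 0.926, 0.514 and -0.745 and Ncf4 0.470, 0.444 and 0.970. Among the 8 genes themselves, r over the same 15 libraries ran from 0.345 for Vav1 and Itgb2 to 0.979 for Spi1 and Cd53. Over the 24 EC libraries, which come from 4 separately normalized tables, it ran from 0.565 for Lcp1 and Cd53 to 0.959 for Vav1 and Spi1.

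On GRCm38 (GENCODE vM21) the genes lie on 8 chromosomes: Ptprc at chr1:138062861-138175708, Spi1 at chr2:91082390-91115756, Cd53 at chr3:106759921-106790149, Laptm5 at chr4:130913125-130936141, Coro1a at chr7:126699773-126707787, Itgb2 at chr10:77530252-77565708, Lcp1 at chr14:75131101-75230842 and Vav1 at chr17:57279100-57328031. Cdh5 lies at chr8:104101625-104144511. Ptprc overlaps A130071D04Rik on its own strand, and Coro1a overlaps Bola2, Lcp1 overlaps Gm15628 and Gm15629, and Cdh5 overlaps Gm29682 on the opposite strand. The SMART-Seq v4 libraries do not keep strand, so reads from bases shared with a partner on the opposite strand cannot be assigned by strand there. These overlaps are of whole gene spans, and whether counted exons are shared was not tested.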

How the data were processed

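The deposited values are FPKM per gene in 4 tables that the authors normalized separately, so tests were run within a table. Per the submitters' processing notes the tools were bcl2fastq 2.19.1.403, TopHat2 2.1.1, HTSeq 0.6.1 and DESeq2 1.18.1, with the build mm10. Each table held 38926 rows and 0 columns without a sample. For 37954 genes the values were whole multiples of 1 read, within a tolerance of 0.005 reads plus a small share of the reads. For 23864 of these genes the length used was the annotated one. For the others a length that gave whole reads was searched for, so for them whole reads are no check. The depths came from the recovered reads. 

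The scale of all tests was log2(FPKM + 1), whose pseudocount of 1 understates the change of low genes. A gene entered a comparison when 3 or more of its 6 libraries reached 1 FPKM. Tests used limma 3.58.1 (two-sided, eBayes, trended prior) under R 4.3.3, with data.table at version 1.17.8, with calls at a Benjamini-Hochberg adjusted p below 0.05. All 8 genes passed this filter in every comparison. Of the 11 fits, 7 compare levels and 4 compare levels relative to Cdh5, where all genes share the error of Cdh5. Pooling the variance over genes treats this shared error as independent between them, so p-values relative to Cdh5 can be too small. With 3 libraries a group, exact permutation cannot reach 0.05 and was not used. Sums, shares and quotients carry no test. The pipeline was tested on simulated data.

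The genes, lists, comparisons and tests were chosen with earlier results of these data known. Named besides the 8 genes and Cdh5 are the first 2 genes of a marker list, the 3 largest and 3 smallest differences of the blood-wide list under irradiation, and the 8 genes most like the mean of the 8; not all are printed, and genes at 0 and overlapping genes were added. Chil3, Adgre1 and Epb42 were read under their older symbols, and Ahsp was not used here. Same-numbered replicates do not pair, by correlations of their deviations.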

Additional observations from a re-analysis of the deposited data

How the results depend on the processing

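Of 1185 values of single genes under alternatives, 1075 kept their direction and their side of the threshold, 72 lost the call, 15 gained it and 23 turned sign. In irradiated bone EC all 8 genes were called as lower under every level setting and with any library left out. For Vav1 DTX EC against Vav1 control EC, 0 to 6 of the 8 were called when 1 library was left out, 0 without any 1 of the controls and 6 without Vav1 DTX replicate 2. Relative to Cdh5, 1 was called, against 0 with a pseudocount of 0.1, with no filter, with the replicate block, with Emcn in place of Cdh5 and with each gene on its own variance (chosen after seeing the data), 2 with Tek, 2 with the pan-endothelial mean, 6 with Pecam1, and 0 to 2 with a library left out. In Apln+ EC against diaphysis EC, 0 to 6 were called with a library left out, 6 without Apln+ replicate 1, and relative to Cdh5 1 with the replicate block and 0 to 8 with a library left out. In bone EC against LSK, 6 were called, all higher, against 3 with all libraries of the table fitted together, 3 with voom on the recovered reads (2 higher, 1 lower) and 4 with TPM (2 higher, 2 lower). The ratio of the sum per Cdh5 in Apln+ EC was 1.2, against 0.58 with Pecam1, 0.629 with Emcn and 0.287 to 1.66 with a library left out. In 9Gy1D EC it was 0.136, against 0.226 with Pecam1 and 0.0866 to 0.162 with a library left out. With TPM the median percentage of the BMC level was 21.8 in irradiated bone EC, 71.9 in bone EC and 90.8 in LSK. The cause of these shifts was not tested.

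The log2 differences that turned sign follow. For Vav1 DTX EC, Vav1 was at 0.0115 with TPM and at -0.51 to 0.15 with a library left out, positive without Vav1 DTX replicate 2. Spi1 was at 0.21 with TPM, 0.053 with voom and -0.20 to 0.23 with a library left out, positive without the same library. In Apln+ EC, Itgb2 was at -0.0089 with median-of-ratios scaling, -0.14 with TPM, -0.11 with voom and -0.56 to 0.33 with a library left out, negative without Apln+ replicate 1 and without diaphysis replicate 3. Spi1 was at -0.12 with TPM, -0.095 with voom and -0.48 to 0.35 with a library left out, negative without Apln+ replicate 1 and without diaphysis replicate 2. With a library left out, Lcp1 was at -0.24 to 0.53, negative without Apln+ replicate 1, and Cd53 at -0.85 to 0.011, positive without Apln+ replicate 3. In bone EC against LSK, TPM gave -0.32 for Spi1, -0.34 for Laptm5, -0.20 for Lcp1 and -0.049 for Cd53, and voom -0.012 for Spi1 and -0.038 for Laptm5. In bone EC against BMC, Spi1 was at 0.016 with TPM. TPM moved the median of all genes by 0.25 for irradiated bone EC, for Vav1 DTX EC and for 9Gy1D EC, -0.15 in Apln+ EC, -0.68 against LSK, 0.19 against Lin- and 0.41 against BMC.

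The replicate block, fitted although the numbers do not pair, called 8 of the 8 genes for irradiated bone EC, 2 for Vav1 DTX EC, 0 for Apln+ EC and 7 for 9Gy1D EC. It called 4, 7 and 7 in bone EC against LSK, Lin- and BMC. In no comparison did all samples correlate best with the sample of their own number. Over all genes, 26.3% were called in Vav1 DTX EC, against 10.1 to 41.6% with a library left out, and 7.5% in Apln+ EC, against 1.3 to 33.3%, both highest without the library that stood apart. The fewest reads behind a member in an EC library were 88.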
